A study of Homo sapiens with 4 samples.

Results

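Transcripts of the NF-kB pathway were followed in HCT116 cells, an established human colorectal cancer line, by RNA sequencing after transfection of an antisense oligonucleotide (ASO). The 38 genes described here were taken out of 63677 genes in the count table. They comprise the NF-kB subunits, inhibitors, signalling regulators and kinases of the pathway and a selection of its known targets. They were picked by symbol and selected on this series with its results known, because genes of the pathway had stood out in the comparison of anti-GAA with control ASO. Their differences between those conditions are therefore given as a description and support nothing beyond the values themselves.

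The anti-GAA ASO is a 21-nt repeat of TTC directed against RNAs that carry tandem GAA repeats, and was built as a gapmer, with methoxyethyl-modified ends and a DNA centre that supports cleavage of the paired RNA by RNase H. The control ASO was a non-targeting oligonucleotide obtained from another maker. Each condition had 2 libraries, replicates 1 and 2, and all 4 came from transfected cells, without an untreated library. The labels give 48 h of transfection and a total RNA library kit, whereas the methods describe ASO transfections of 24 h at 80 nM and a stranded kit for messenger RNA. The replicates were called duplicate experiments. A general statement of the study has its experiments repeated independently, on cultures grown in parallel, but none names these libraries, so that p-values measure the spread between them, which may be technical. Libraries held between 10538284 (anti-GAA replicate 1) and 17894953 counts (anti-GAA replicate 2). All 5 epithelial markers examined were expressed, with EPCAM between 628 and 740 CPM (counts scaled to library size, with TMM factors), whereas leukocyte and endothelial markers stayed under 1 CPM in every library and CD3E, MS4A1 and PECAM1 were at 0. Among fibroblast markers COL1A1 reached 14.6 CPM, and the other 3 stayed under 1 CPM, with DCN at 0. Of the epithelial markers, 4 had both anti-GAA libraries below both controls, namely KRT18 (log2 fold change of anti-GAA over control -0.54 ± 0.22), CDH1 (-0.40 ± 0.25), KRT8 (-0.27 ± 0.20) and EPCAM (-0.21 ± 0.18), whereas KRT19 gave 0.26 ± 0.22. The 5 summed to 2552 and 2885 CPM in the anti-GAA and to 2649 and 2893 CPM in the control libraries, and their part in the differences described here was not tested.

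NF-kB is a family of dimeric transcription factors built from 5 subunits, RELA, RELB, REL and the precursor proteins NFKB1 and NFKB2. In resting cells the dimers are held in the cytoplasm by IkB proteins. Receptors of the TNF, interleukin and Toll-like families activate a kinase complex that marks IkB for destruction, and the released dimers bind kB sites near genes for chemokines, cytokines, adhesion molecules and survival factors. Several of those genes encode the inhibitors of the pathway itself, such as NFKBIA and TNFAIP3, which close a feedback loop. A second, non-canonical branch runs through the kinase MAP3K14 and the processing of NFKB2. In colorectal epithelium the pathway is known for its part in inflammation and in the secretion of neutrophil-attracting chemokines.

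Promoter sequences of the members were examined for matches to the kB consensus, the binding motif of the family. Windows ran from 250 bases before to 50 bases after the RefSeq transcription start, in GRCh38.p14, and both strands were searched. Of the 38 members 34 had a window, and 15 of those (44.1%) held at least 1 match. The shares were 11.3% of 35116 promoters and 13.3% of the 10558 promoters of genes tested here. Members were listed as genes and known targets of this pathway, so the difference in shares is not read as a finding. REL, NFKBIZ, BCL3, MAP3K8, CCL20, LTB and IL32 held a match as well and are not shown. For a selection of members, matches are shown in capitals, each with 10 flanking bases on either side, in the direction of transcription.
CXCL1: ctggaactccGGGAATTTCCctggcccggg
CXCL2: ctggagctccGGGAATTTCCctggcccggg
CXCL3: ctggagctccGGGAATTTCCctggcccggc
TNFAIP3: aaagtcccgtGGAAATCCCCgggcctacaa
BIRC3: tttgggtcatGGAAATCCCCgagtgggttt
IRF1: ggccagggctGGGGAATCCCgctaagtgtt
NFKBIA: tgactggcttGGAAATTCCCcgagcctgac
NFKB1: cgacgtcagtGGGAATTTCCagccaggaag

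The 3 chemokine promoters carried the same 10-base match, and their 30-base stretches differed at 1 position between CXCL1 and CXCL2, at 1 between CXCL2 and CXCL3 and at 2 between CXCL1 and CXCL3. Each of the 3 also held an overlapping match on the opposite strand, which is not shown. The CXCL1 match shown lay at chr4:73869314-73869323 on the plus strand and began 79 bases before the start. CXCL2 had the match shown at chr4:74099264-74099273 and CXCL3 at chr4:74038759-74038768, both read from the minus strand, 78 and 79 bases before their starts. TNFAIP3 had 2 matches, the one shown at chr6:137867204-137867213 and beginning 55 bases before the start. BIRC3 also had 2, the one shown at chr11:102317285-102317294, 199 bases upstream. The IRF1 match at chr5:132490814-132490823 read as the consensus on both strands, 50 bases before the start. In NFKBIA the match was at chr14:35404821-35404830, 81 bases upstream, and in NFKB1 at chr4:102501310-102501319, 49 bases upstream. These are matches of letters and were not tested for binding.

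Of the 38 members 37 had a row in the count table, 32 had enough counts to be tested, and SOD2, a mitochondrial antioxidant enzyme, was not analysed because no row was matched to it. The row matched to IKBKE, an IKK-related kinase, was at 0 in all 4 libraries, and nothing is read from it. CCL20, TNF, LTB and IL32, the other 4 members left untested, had between 1 and 6 counts per library. TNF, the cytokine for which the activating pathway is best known, had 1 count in each anti-GAA library and 6 and 2 in the controls. LTB and IL32, further cytokines, had at most 5 and 3 counts, and CCL20, a chemokine for dendritic cells and lymphocytes, at most 6.

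Levels per length, in CPM per kilobase of the canonical transcript, spanned a wide range in the control libraries (mean ± SD, n = 2 for every level and mean that follows). The top places were taken by the inhibitors NFKBIB (44.6 ± 11.0) and NFKBIA (43.1 ± 19.9) and by PLAU (34.7 ± 19.6), the urokinase plasminogen activator. NFKBIE followed with 30.9 ± 2.47, RELA with 26.5 ± 3.53, TNIP1 with 26.5 ± 5.30 and TNIP2 with 25.6 ± 8.10. Between neighbours in this order the ranges of mean ± SD overlapped. CXCL1 (20.3 ± 3.05), RELB (18.2 ± 2.92), EFNA1 (16.5 ± 1.34) and NFKB1 (16.0 ± 6.53) came next. Lowest among the members tested were MAP3K14 (0.561 ± 0.108), the adhesion molecule ICAM1 (0.528 ± 0.185) and REL (0.284 ± 0.0635), the subunit typical of lymphocytes. 14 members exceeded 10 CPM per kilobase. When the length of all annotated exons was used instead, 11 did, and NFKBIE came first with 28.0 CPM per kilobase.

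Anti-GAA libraries were compared with control libraries gene by gene with edgeR's quasi-likelihood test on all 15116 genes that passed the count filter. 27 of the 32 members tested (84.4%) were fitted below 0 on the log2 scale, against 48.4% of all genes tested. Their median log2 fold change, anti-GAA over control, was -0.52, and the values ran from -1.76 to 0.21, where the median of all genes tested was 0.013. The members' median was -0.81 without anti-GAA replicate 1 and -0.32 without anti-GAA replicate 2. With Benjamini-Hochberg adjustment over all genes, 0 members were called lower and 0 higher (0% and 0% of genes tested), and the smallest adjusted p was 0.67. DESeq2 called 0 members, with 7 lower at an unadjusted p under 0.05. At an unadjusted p under 0.05 edgeR had 11 members lower (34.4%, against 3.46% of genes tested) and 0 higher (against 1.02%). Because the members were chosen from this contrast, nothing is read from these shares. In bulk RNA, less transcript per cell and fewer cells that express a gene cannot be told apart.

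The CPM values of both conditions did not overlap in 15 of the tested members, 14 with both anti-GAA libraries lower (43.8%, against 16.9% of genes tested) and 1, BCL3, with both higher (3.12%, against 15.5%). Libraries of the same replicate number were also set against each other as pairs. 22 members (68.8%) were lower with the anti-GAA ASO in both pairs, against 4540 of 15116 genes tested, and 3 were higher in both (9.38%, against 31.8%). The medians over the members were -0.36 in pair 1 and -0.55 in pair 2, on the scale of log2(CPM + 0.5). With the replicate number as a block in the edgeR fit, 5 members were called lower at an adjusted p under 0.05 (15.6%, against 1.37% of genes tested) and 0 higher (against 0.337%). These 5 were BIRC3, CXCL1, IRF1, NFKB2 and TNFAIP3. With the same block DESeq2 called 3 of them, BIRC3, CXCL1 and TNFAIP3, and not IRF1 (adjusted p = 0.052) or NFKB2 (adjusted p = 0.34).

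**Figure D1:**
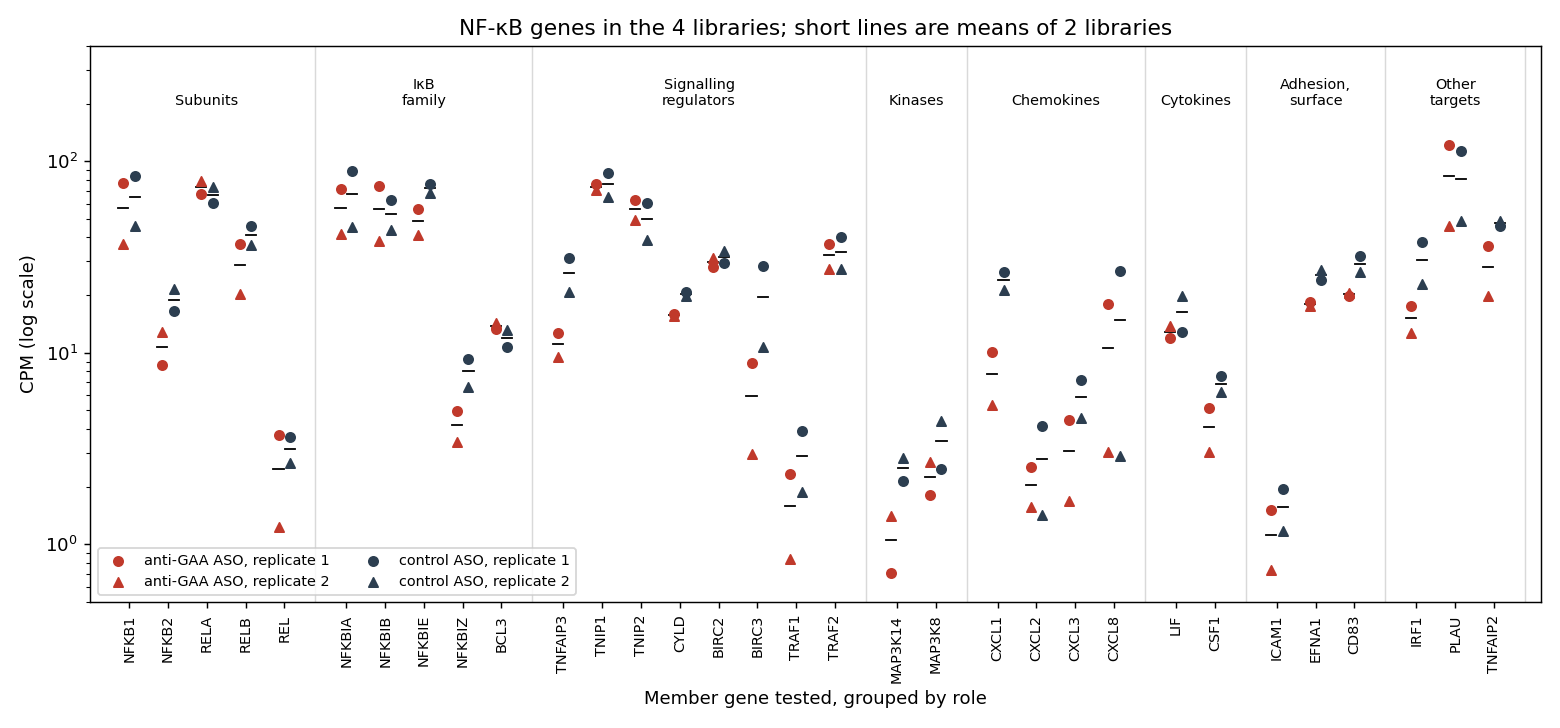
CPM on a log axis of the 32 members tested in the 2 anti-GAA (red) and 2 control (dark) libraries, circles for replicate 1 and triangles for replicate 2, with short lines at the means of 2 libraries. Both red points lie below both dark points in 14 members, among them TNFAIP3, BIRC3, CXCL1 and IRF1, and for CXCL8 and PLAU the distance between circles and triangles exceeds that between colours.

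In what follows, values in CPM are given first for anti-GAA replicates 1 and 2, then for control replicates 1 and 2, and differences are log2 fold changes of anti-GAA over control with their standard error, from the fit without the block. Among the 5 subunits, NFKB2, the precursor of p52 in the non-canonical branch, had 8.59 and 12.8 CPM against 16.4 and 21.5 in the controls, a log2 fold change of -0.81 ± 0.29. Its anti-GAA libraries were both below its control libraries, and the pair differences were close to each other at -0.90 and -0.72. RELB, the partner of p52, stood at 37.2 and 20.3 CPM against 45.8 and 36.5 (-0.53 ± 0.32), with the anti-GAA replicate 1 library just inside the range of the controls. RELA, the main transactivating subunit, had 67.7 and 79.2 CPM against 60.5 and 73.1 (0.14 ± 0.21), so that the conditions overlapped. NFKB1, the precursor of p50, overlapped as well, with 77.1 and 37.0 CPM against 83.6 and 46.2 (-0.19 ± 0.41). REL gave -0.39 ± 0.56, at 1.24 to 3.74 CPM. It shares 5702 exon bases with an unnamed gene, ENSG00000267520, on its own strand, and how reads in that stretch were assigned was not given, so that its level is uncertain.

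The IkB family retains NF-kB dimers in the cytoplasm or, for its nuclear members, modulates them on DNA. NFKBIZ, a nuclear member that is itself induced by the pathway, had 4.95 and 3.43 CPM against 9.32 and 6.66 (-0.94 ± 0.35). It shares 194 exon bases with NXPE3 on its own strand, and how reads there were assigned was not given. NFKBIE, a cytoplasmic inhibitor, had 56.3 and 41.1 CPM against 76.5 and 68.3 (-0.57 ± 0.23). In both genes the conditions did not overlap. NFKBIA, the classical feedback inhibitor, had 72.0 and 41.5 CPM against 89.1 and 45.2 (-0.24 ± 0.39), and NFKBIB had 74.4 and 38.4 against 62.4 and 43.9 (0.08 ± 0.35). For these, the replicate 1 libraries were the high ones whatever the ASO. BCL3, a nuclear member that binds p50 and p52 dimers, had 13.2 and 14.4 CPM against 10.7 and 13.2 (0.21 ± 0.25). Its lower anti-GAA library and its higher control library were almost level.

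Among the regulators of the signalling complexes, TNFAIP3 and BIRC3 had the lowest fold changes. TNFAIP3, known as A20, edits ubiquitin chains and shuts the pathway down. It had 12.6 and 9.50 CPM with the anti-GAA ASO and 31.3 and 20.9 with the control, a log2 fold change of -1.24 ± 0.29. The fitted level of TNFAIP3 was 2.37-fold higher in the controls. BIRC3, the inducible inhibitor of apoptosis cIAP2, had 8.89 and 2.98 CPM against 28.6 and 10.7 (-1.76 ± 0.62). Its fitted level was 3.40-fold higher in the controls. All anti-GAA values of both genes were below all control values, although the lower BIRC3 control came near the higher anti-GAA library. The pair differences of BIRC3 were -1.63 and -1.69, and those of TNFAIP3 were -1.28 and -1.10. On the opposite strand, BIRC3 shares 126 exon bases with ENSG00000288528 and TNFAIP3 shares 95 with WAKMAR2.

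The other regulators differed less. BIRC2, the constitutive paralogue of BIRC3, gave -0.09 ± 0.21, and CYLD, a deubiquitinase, gave -0.36 ± 0.22 with its libraries not overlapping. TRAF1, an inducible adaptor, had 2.32 and 0.843 CPM against 3.91 and 1.89 (-0.93 ± 0.61), from 15 to 60 counts per library. TRAF2, a constitutive adaptor, had 37.1 and 27.5 CPM against 40.1 and 27.5 (-0.07 ± 0.27). TNIP1 and TNIP2, which bind A20, had 76.1 and 70.4 CPM against 86.9 and 65.3 (-0.06 ± 0.22) and 62.7 and 49.4 against 60.9 and 38.6 (0.17 ± 0.28). In TRAF1, TRAF2, TNIP1 and TNIP2 the conditions overlapped.

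MAP3K14, the NF-kB inducing kinase of the non-canonical branch, had 0.707 and 1.40 CPM against 2.15 and 2.83 (-1.18 ± 0.48), from only 7 to 48 counts per library. Its anti-GAA libraries lay below its controls, in both pairs. MAP3K8, a kinase that links the pathway to MAP kinases, had 1.82 and 2.70 CPM against 2.48 and 4.42 (-0.59 ± 0.44), with overlap. In the annotation, MAP3K14 shares 858 exon bases with MAP3K14-AS1 on the opposite strand, and the counting's strand setting was not given in the sources used here, so that reads of both cannot be told apart.

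The chemokines that shared a promoter match differed in their values. CXCL1, which attracts neutrophils, had 10.1 and 5.34 CPM with the anti-GAA ASO and 26.4 and 21.3 with the control (-1.65 ± 0.35). Its fitted level was 3.14-fold higher in the controls. CXCL3 had 4.45 and 1.69 CPM against 7.24 and 4.54 (-0.98 ± 0.52), without overlap but with anti-GAA replicate 1 close to control replicate 2. CXCL2 had 2.53 and 1.57 CPM against 4.17 and 1.42 (-0.47 ± 0.59), and its pairs went in opposite directions, at -0.63 and 0.11. CXCL8, interleukin-8, had 18.1 and 3.03 CPM against 26.7 and 2.89 (-0.52 ± 1.05), which put both replicate 2 libraries low. CXCL1, CXCL2 and CXCL3 are near-identical paralogues, and the assignment of reads that match more than 1 of them is uncertain.

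Of the cytokines with enough counts, LIF, a growth factor of the interleukin-6 family, had 11.9 and 13.9 CPM against 12.8 and 19.8 (-0.33 ± 0.29), with overlap. CSF1, the macrophage growth factor, gave -0.77 ± 0.37 and did not overlap. The surface molecules EFNA1 and CD83 were lower in both anti-GAA libraries. EFNA1, an ephrin ligand induced by TNF, had 18.4 and 17.5 CPM against 24.1 and 27.0 (-0.51 ± 0.21). CD83, an immunoglobulin-family surface protein, had 19.7 and 20.6 against 32.1 and 26.4 (-0.53 ± 0.22). These were the narrowest spreads among the chemokine, cytokine and surface genes. ICAM1, an adhesion molecule for leukocytes, gave -0.53 ± 0.55 from 13 to 30 counts per library. ICAM1 shares 815 exon bases with ICAM4-AS1 on the opposite strand.

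IRF1, a transcription factor that joins NF-kB to interferon responses, had 17.6 and 12.7 CPM against 37.9 and 22.9 (-1.01 ± 0.31), with no overlap and pair differences of -1.09 and -0.82. PLAU had 121 and 46.0 CPM against 114 and 48.8 (0.04 ± 0.53), and its replicate 1 libraries were the high ones under both ASOs. TNFAIP2, a TNF-induced protein, had 36.2 and 19.8 CPM against 45.8 and 49.0 (-0.77 ± 0.30). Its pair differences were unlike each other, -0.34 and -1.28, and the anti-GAA replicate 2 library stood apart from the other 3. IRF1 shares 2805 exon bases with IRF1-AS1 and 486 with ENSG00000283782, and PLAU shares 915 with C10orf55, each on the opposite strand. Without the strand setting, reads of these genes cannot be told apart. Further members share exon bases with other genes and are not listed.

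The ASO was designed to pair with GAA repeats, so each gene's longest transcript in GENCODE release 44 (GRCh38) was searched for the 21-nt stretch that matched the repeat best. Members' best stretches are shown with matching bases in capitals and mismatches in lower case, for the member with the best match, the next and CXCL1.
TNFAIP2: GAAGAAGAAGAAGgAGAAGAA
MAP3K14: GAAGAAacgGAAGAAGAAGAg
CXCL1: GgAacAGAAGAgGAAagAGAg

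The TNFAIP2 stretch matched at 20 of 21 positions and lay in the coding sequence, in exon 3, at chr14:103126538-103126558. Only 0.271% of 14751 genes tested with a transcript matched at 20 or more. Its longest unbroken run of the repeat was 14 nt, and it was the only member tested with a run of at least 12 nt (3.12%, against 2.54% of genes tested). The MAP3K14 stretch at chr17:45287242-45287262, in the coding sequence of exon 3, matched at 17 positions, which 6.91% of genes reached. BIRC3, CXCL1, IRF1, NFKB2 and TNFAIP3 each matched at 14 positions, with unbroken runs of 6 to 9 nt. That was the median of all genes tested as well as of the members. The longest transcripts of TNFAIP3 and IRF1 were noncoding, so their messenger RNAs were not the sequences searched. For every gene, shorter transcripts and introns absent from the longest one were not searched either. Better matches outside the sequences searched are therefore possible. The BIRC3 stretch was mostly A, which matches wherever the repeat has A.

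Across all genes tested, the 40 with 20 or 21 matching positions had a median log2 fold change of -0.36, and 85.0% of them were fitted below 0. Genes with 14 matches had a median of 0.02, with 47.2% below 0. The 15 members with 14 matches had a median of -0.77, and 13 of them were below 0. Because the members were chosen from this contrast, nothing is read from their values beside those of all genes. TNFAIP2, at -0.77, was the single member among the 40 genes. Longer transcripts offer more stretches to match, and length was not taken into account in these medians. Whether the oligonucleotide paired with any of these RNAs was not tested.

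**Figure D2:**
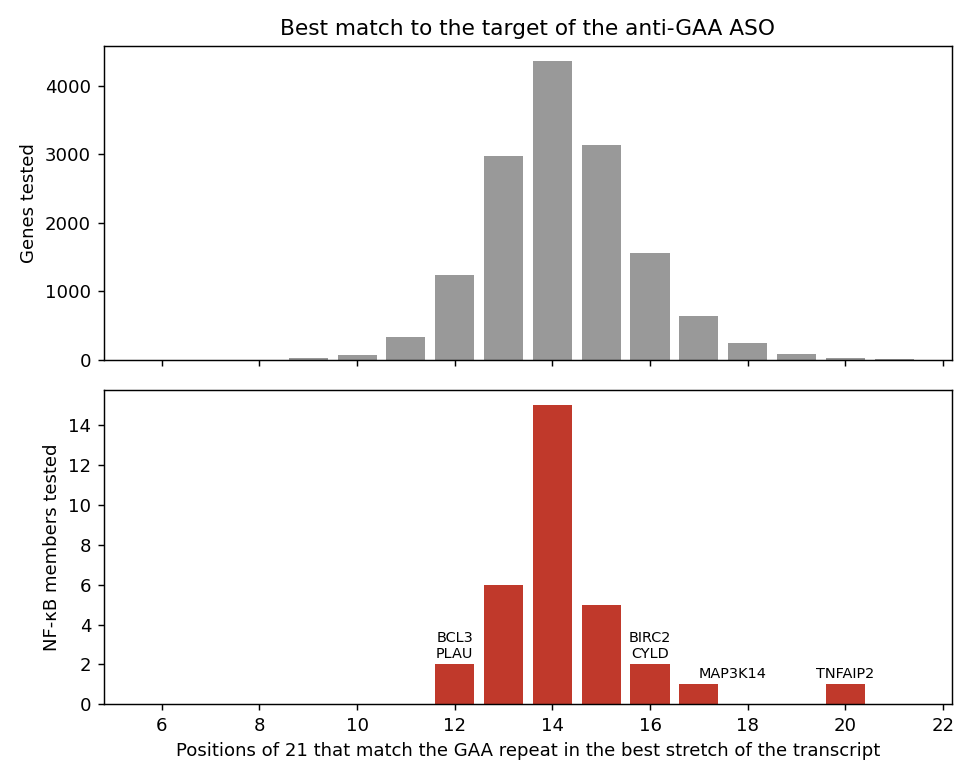
Number of genes tested (top) and of NF-kB members tested (bottom) by the number of 21 positions that match the GAA repeat in the best stretch of the longest transcript. Both distributions peak at 14, and TNFAIP2 is the one member at 20.

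The members also differed between replicate numbers, which was not the contrast used to choose them. They were nonetheless chosen with results of these same libraries known. The shares and p-values for this contrast are therefore given as a description as well. It was taken from the edgeR fit with ASO and replicate number as terms, which leaves 1 residual degree of freedom, and p-values were adjusted by Benjamini-Hochberg over the 15116 genes. In replicate 2, 13 of 32 members fell relative to replicate 1 (40.6%, against 7.52% of genes tested) and 0 rose (against 6.98%). At an unadjusted p under 0.05, 16 of 32 had a lower value in replicate 2 (against 15.0% of genes tested) and 3, LIF, MAP3K8 and NFKB2, a higher one (9.38%, against 15.1%). The median over the members was -0.50 and that of all genes 0.016. DESeq2 with the same terms called 6 of the 13, BIRC3, CXCL8, NFKB1, NFKBIA, NFKBIB and PLAU. What the replicate numbers stood for was not given, and the replicate 1 libraries were not the same depth, with 10538284 and 15347298 counts against 17894953 and 15924742 in replicate 2. The part of depth in this difference was not tested.

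CXCL8 fell farthest in replicate 2, with a log2 fold change of -2.89 ± 0.23 (adjusted p = 8.7e-06). BIRC3 fell by 1.48 ± 0.20 on the log2 scale (adjusted p = 4.3e-04) and PLAU by 1.31 ± 0.14 (adjusted p = 7.6e-05). Among the subunits and inhibitors, NFKB1 fell by 0.96 ± 0.14 (adjusted p = 9.6e-04), NFKBIA by 0.89 ± 0.14 (adjusted p = 0.0015) and NFKBIB by 0.73 ± 0.15 (adjusted p = 0.0080). RELB (-0.59 ± 0.17, adjusted p = 0.031) and IRF1 (-0.61 ± 0.17, adjusted p = 0.026) fell less. TRAF1, CXCL2, CXCL3, TNIP2 and TRAF2 had adjusted p-values between 0.035 and 0.045, with log2 fold changes from -1.21 (TRAF1) to -0.49 (TRAF2). In each of the 13 the replicate 2 library was the lower one under both ASOs.

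The ASO and replicate terms did not move the same members to the same extent. BIRC3 was low with the anti-GAA ASO and in replicate 2 alike, with -1.76 ± 0.20 for the ASO in the fit with both terms. CXCL1 and TNFAIP3 differed with the ASO by -1.69 ± 0.20 and -1.22 ± 0.17 in that fit, and between replicates by -0.56 ± 0.20 (adjusted p = 0.074) and -0.51 ± 0.17 (adjusted p = 0.063). IRF1 was also called on both terms by edgeR, with an ASO term of -0.98 ± 0.17. Of the other 11 members called between replicates, CXCL3 (-1.04 ± 0.29), TRAF1 (-0.93 ± 0.35) and RELB (-0.57 ± 0.17) had ASO terms under -0.5, and the remaining 8, PLAU and NFKBIA among them, had terms from -0.33 (CXCL8) to 0.20 (TNIP2). NFKB2 went the other way between replicates (0.47 ± 0.18, adjusted p = 0.10). Of the 12 members called between replicates that had a promoter window, 6 held a kB match, close to the share among all members tested, 12 of 28 (42.9%). The 5 called with the block, which rest on the contrast that chose the members, had a match in 4, all but NFKB2. Whether the difference between ASOs depended on the replicate number could not be tested, since each combination had 1 library and such a fit leaves no residual degree of freedom.

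**Figure D3:**
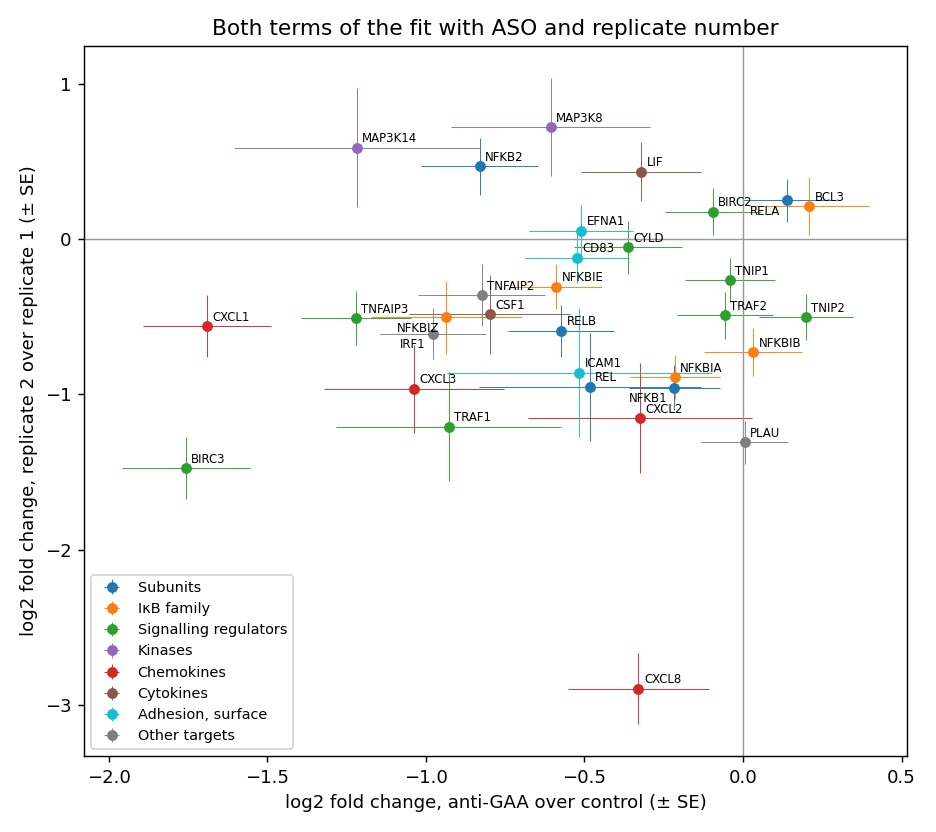
log2 fold change of anti-GAA over control (horizontal) and of replicate 2 over replicate 1 (vertical) for the 32 members tested, both terms of 1 edgeR fit, with bars of 1 SE and colours for roles. BIRC3 lies low on both axes, CXCL1 and TNFAIP3 mainly on the horizontal one, and CXCL8 and PLAU on the vertical one, with CXCL8 at -2.89.

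Upstream genes of the pathway that were no members comprised 37 receptors, adaptors, kinases and ubiquitin enzymes. Members were chosen from this contrast, and the upstream list was drawn up with earlier results of these data known. The upstream genes are therefore no unselected reference, and the values of both lists are not compared. 31 were tested, 14 of them were fitted below 0, and their median log2 fold change, anti-GAA over control, was 0.02. At an adjusted p under 0.05, 0 were called without the block, and at an unadjusted p under 0.05, 0 were lower and 1 was higher. That gene was RBCK1, a subunit of the linear ubiquitin ligase that assembles signalling chains at the TNF receptor. It had 181 and 174 CPM against 115 and 103, a log2 fold change of 0.71 ± 0.19 with an edgeR adjusted p of 0.92 without the block and 0.017 with it. The conditions did not overlap in 1 gene that was lower, the receptor gene TLR3 (3.23%, against 16.9% of genes tested), and in 6 that were higher (19.4%, against 15.5%). Between replicates, 4 of the 31 fell (12.9%, against 7.52%) and 0 rose (against 6.98%). TNFRSF1A, the main TNF receptor, was one of these, at -0.49 ± 0.14 (adjusted p = 0.030). Its ASO difference was 0.36 ± 0.26.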

How the data were processed

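RNA-seq libraries of HCT116 cells, 2 per ASO, were analysed from the deposited gene counts. The authors trimmed reads with Trimmomatic, aligned them with STAR, dropped alignments to GL contigs and used featureCounts with an hg19 (GRCh37) annotation from Ensembl, per the methods and the submitters' processing notes. The values the authors deposited are whole-number counts per gene without normalization, for 63677 rows per library. The strand setting, the handling of reads that match several genes and the Ensembl release are not given in the sources used here. All columns of the table were used.

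Gene symbols and lengths came from GENCODE release 44 (GRCh38), matched by Ensembl identifier for 52181 rows, and members without a match were not analysed. Coordinates are those of GRCh38, and no coordinates were converted. Genes passing edgeR's default count filter (15116) were scaled by TMM and tested with the quasi-likelihood test (edgeR 4.0.16, R 4.3.3), with Benjamini-Hochberg adjustment over all genes and a threshold of 0.05. Groups came from the labels, and the main model had the ASO as its only term, as the study's own analysis was described without a pairing term. Alternatives were the replicate block, DESeq2 1.42.0, other scalings and filters, offsets for length and GC content, and leaving out each library. The pipeline was also run on simulated counts, drawn for all genes at the common dispersion of the fit with the block. That setting differs from the fit without the block, and nothing is read from the run here. CPM are TMM-scaled, and pair differences used an offset of 0.5 CPM. Standard errors of edgeR fold changes were derived, as the absolute log2 fold change over the square root of the test's F statistic. Members and the upstream and marker lists were chosen with earlier results of these data known. All 38 members are accounted for. Values in every library are given for members past an unadjusted p of 0.05, called with the block or called between replicates, and for the member with the highest level per length in each role. RBCK1 is the only upstream gene past those limits for the ASO, and TLR3, TNFRSF1A and BCL3 were named after their values were seen.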

Additional observations from a re-analysis of the deposited data

How the results depend on the processing

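The count of members called lower with the anti-GAA ASO was 0 and depended on the fit. It was 5 with the replicate block in edgeR, 3 with the block in DESeq2 (BIRC3, CXCL1, TNFAIP3), 8 with length and GC offsets and the block, which added NFKBIE, NFKBIZ and TNFAIP2, and 3 without a filter on low counts (BIRC3, CXCL1, TNFAIP3). At an unadjusted p it was 11. DESeq2 without the block, other scalings and a stricter filter gave 0, and so did leaving out any 1 library (0 to 0). Why these counts differed was not tested. The common dispersion was 0.0549 without and 0.0148 with the block. Libraries with the same number share a prefix in their titles, and their deviations from the condition means correlated with r = 0.587 across 15116 genes, which are not independent replicates. With 2 pairs this does not establish a pairing.

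Upstream genes called higher numbered 0, and 1 (RBCK1) with the block in edgeR, in DESeq2 and with length and GC offsets, and 1 at an unadjusted p. Members called lower in replicate 2 numbered 13, and 6 in DESeq2. Scaling by total counts gave 9, without CXCL2, RELB, TNIP2 and TRAF2, and a filter at a mean of at least 1 CPM gave 16. DESeq2 size factors, no filter on low counts and length and GC offsets gave 12 to 14. Members higher in replicate 2 numbered 0, and 3 at an unadjusted p. No fit without 1 library was made for that contrast, as none leaves a residual degree of freedom.

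The members' median log2 fold change of -0.52 ranged from -0.81 (without anti-GAA replicate 1) to -0.32 (without anti-GAA replicate 2). Scaling by total counts gave -0.61, where the median of all genes moved to -0.08. Under that scaling NFKBIB and PLAU changed sign, and length and GC offsets changed that of PLAU. Leaving out 1 library changed the sign of 3 to 7 members, none with a size above 0.52 in the full fit.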
